A study of Mus musculus with 8 samples.

Results

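The genes described here are 49 genes of DNA replication, taken as a list of named genes, whose products choose and open the origins of replication, copy DNA at the fork and supply its building blocks. All 49 were among the 54752 genes counted, and all 49 were among the 17865 that passed the filter on low counts, with between 35 and 3725 counts per brain. They fall into 10 roles, which are the 6 subunits of the origin recognition complex, 3 genes of helicase loading, the 6 genes of the MCM ring, 8 of helicase activation, 9 of primase and the polymerases, 6 of the sliding clamp and its loader, 3 of single-strand binding, 2 of Okazaki fragment joining, 4 of nucleotide supply, and the pair Ung and Uhrf1. RNA of 8 wild type C57BL/6 mouse brains at E15.5 (C57BL/6Slac in the study's methods) was sequenced, 1 library per brain. The control group held females F36 and F37 and males M30 and M31, whose dam stayed in its home cage. The stress group held females F34 and F35 and males M28 and M29, whose dam was put through chronic unpredictable mild stress (CUMS), a changing set of mild stressors, from E5.5 to E14.5. By the study's sample sheet each group was 1 litter. What belongs to the litter and what to the stress therefore cannot be told apart, and all errors below describe the spread among littermates. The question of the comparison was how the transcriptome of the fetal brain differs after prenatal stress.

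Before a cell copies its DNA, the origin recognition complex marks the origins, and Cdc6 and Cdt1 load the ring of Mcm2 to Mcm7 onto them while geminin (Gmnn) blocks further loading. The kinases Cdk and Cdc7 with Dbf4 then turn the ring into a running helicase with Cdc45 and the GINS complex, and primase with the polymerases alpha, delta and epsilon copies both strands. In the fetal brain these genes are used mainly by dividing progenitors, which lie near the ventricles, while neurons have left the cell cycle. Many of them are known targets of the E2F factors, which raise transcription as cells enter S phase.

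The promoters of the MCM ring are shown because this was the role with the largest share of genes that passed the test in the brains, and they are given in the order of the genes' p-values. Each is the stretch from 150 bases before to 30 after the RefSeq start, read on the gene's strand (GRCm38.p6). Capitals mark E2F octamers (TTTGGCGC, TTTCCCGC, TTTCGCGC or TTTGCCGC) and CCAAT boxes (CCAAT), each searched on both strands, so that a match on the other strand reads reversed, as in GCGGGAAA or ATTGG. The stretches lie at chr6:88898751-88898930 for Mcm2, chr1:20820283-20820462 for Mcm3, chr5:138171854-138172033 for Mcm7 and chr1:128359676-128359855 for Mcm6, all on the minus strand, and at chr8:75109359-75109538 on the plus strand for Mcm5. Mcm4 had no entry.
Mcm2: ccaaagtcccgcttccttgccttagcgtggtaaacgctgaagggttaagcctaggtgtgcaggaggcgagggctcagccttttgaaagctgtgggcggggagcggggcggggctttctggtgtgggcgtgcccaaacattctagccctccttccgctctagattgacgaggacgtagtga
Mcm3: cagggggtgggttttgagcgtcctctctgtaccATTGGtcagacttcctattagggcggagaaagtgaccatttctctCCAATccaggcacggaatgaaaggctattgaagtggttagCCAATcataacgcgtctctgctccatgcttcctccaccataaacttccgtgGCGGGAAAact
Mcm7: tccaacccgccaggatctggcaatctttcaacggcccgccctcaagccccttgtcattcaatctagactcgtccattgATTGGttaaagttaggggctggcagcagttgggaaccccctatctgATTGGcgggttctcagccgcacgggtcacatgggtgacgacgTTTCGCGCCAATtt
Mcm6: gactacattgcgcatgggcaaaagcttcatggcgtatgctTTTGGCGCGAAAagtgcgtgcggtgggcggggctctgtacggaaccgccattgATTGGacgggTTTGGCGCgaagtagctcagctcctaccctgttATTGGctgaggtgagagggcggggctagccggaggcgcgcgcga
Mcm5: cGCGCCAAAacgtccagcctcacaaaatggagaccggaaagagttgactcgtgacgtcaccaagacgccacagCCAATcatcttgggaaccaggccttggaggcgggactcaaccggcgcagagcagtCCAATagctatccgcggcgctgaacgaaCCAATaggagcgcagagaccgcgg

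An E2F octamer stood in 4 of these 5 stretches, in Mcm6 at 3 places. The octamer and the CCAAT box of Mcm7 near the end of its stretch overlap, as do 2 of the octamers of Mcm6. Mcm2, first in that order by its p-value, held neither motif in its printed stretch. Its longer window, of the kind counted next, held 1 CCAAT box. Over all members, 41 had at least 1 RefSeq window of 250 bases before and 50 after a start, 51 windows in all, and Gins1, Gins2, Gins4, Gmnn, Mcm4, Pole, Prim2 and Rfc2 had none. The octamers were found in 16 of the 51 windows (31.4%) and in 2.26% of the 32851 windows of all genes. The CCAAT box was found in 27 of the 51 (52.9%), against 37.4% of all windows. The CHR motif (TTTGAA), known from genes of mitosis, was found in 8 (15.7%), against 17.9% of all windows. Among the members with a window, an octamer was found in 7 of the 16 that were higher in the stress group by the test below and in 9 of the 25 that were not called. The CCAAT box was found in 12 of these 16 and 12 of these 25, and the CHR motif in 2 and 5. Differences between these shares were not tested. A match describes these letters only.

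In the stressed brains 19 of the 49 replication genes rose and none fell. The 19 came from all 10 roles and included the whole MCM ring (Mcm2 to Mcm7), both subunits of ribonucleotide reductase (Rrm1 and Rrm2), the clamp Pcna, the ligase Lig1 and the catalytic subunit of polymerase epsilon (Pole). The rises were small, between 1.09-fold (Mcm6) and 1.31-fold (Tk1). In RNA of bulk brain tissue, more cells that express a gene and more RNA per cell cannot be told apart. Calls were made by edgeR's quasi-likelihood test, with the sex of the brain in the model, at an adjusted p under 0.05. By this test 38.8% of the members were higher, against 6.49% of all 17865 genes, and 0 were lower, against 7.27% of all genes. The members and the other lists below were chosen with earlier results of these data known. Such shares describe the lists and are no independent test of them. At an unadjusted p under 0.05, 29 members were higher and again 0 lower, against 2361 higher and 2439 lower of all 17865 genes. DESeq2 called 15 members higher, all among the 19, and 0 lower. The log2 fold change (stress over control) was above 0 for 45 of the 49. Its median was 0.11, against 0.00 over all genes tested, and it ran from -0.04 (Pold2) to 0.39 (Tk1). All 4 stressed brains lay above all 4 control brains for 17 members, against 8.2% of all genes, and the reverse held for 0 members, against 8.22% of all genes. Of these 17, 15 were called. The other 2 were Orc3 and Rpa1, whose adjusted p-values were 0.0579 and 0.0642.

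**Figure D1:**
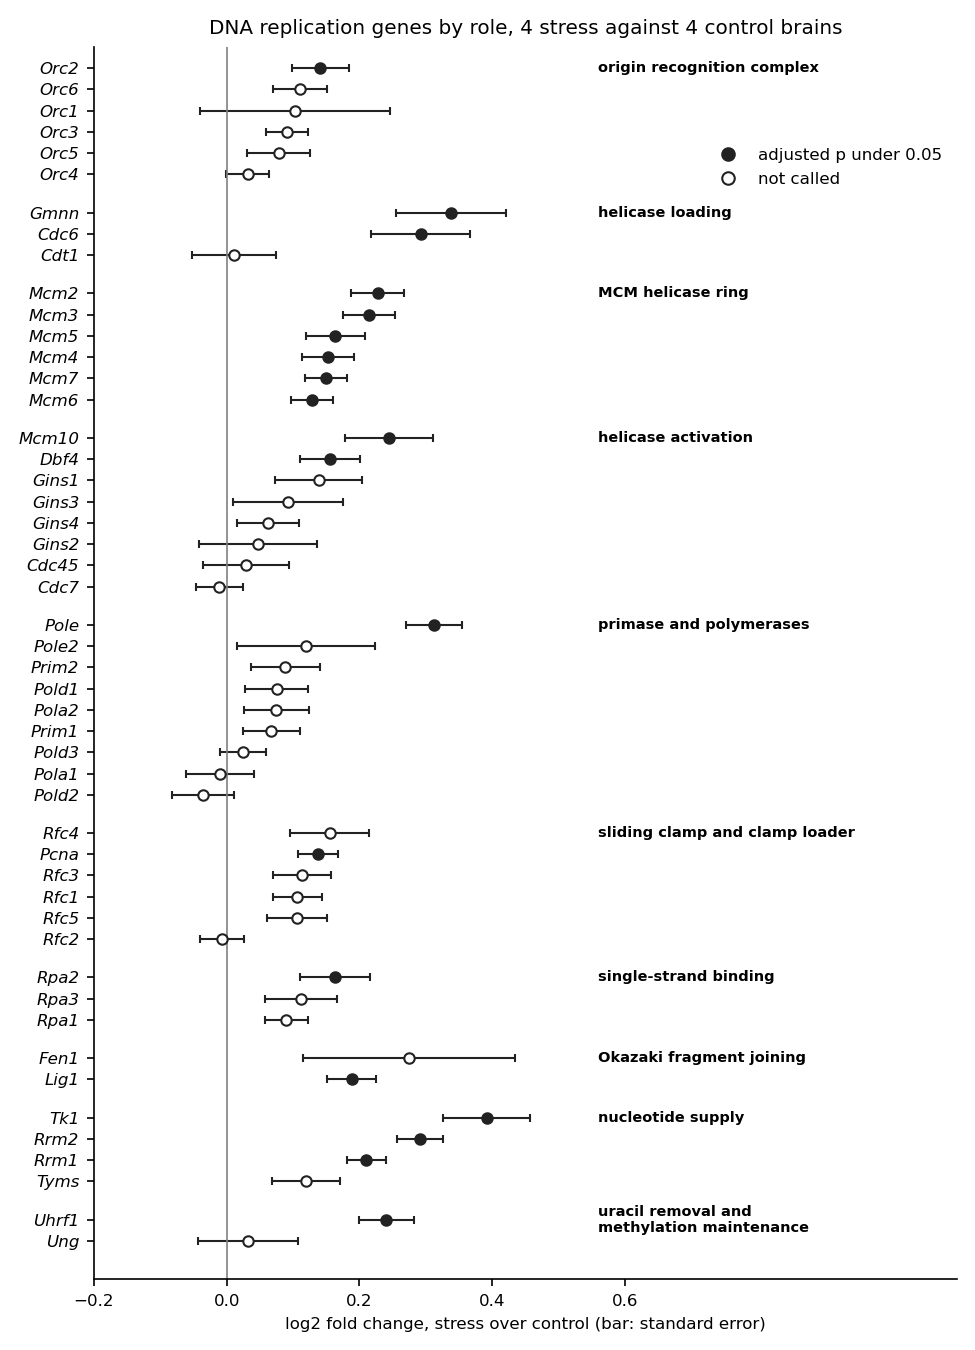
Log2 fold change of the 49 replication genes (stress over control, 4 brains each, edgeR), grouped by role on the vertical axis, with bars of 1 standard error. Filled points are the 19 genes with an adjusted p under 0.05, all to the right of 0, and include all 6 genes of the MCM ring. The 4 points to the left of 0 are open.

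Of the origin recognition complex, which binds DNA at origins, 1 of 6 subunits was called. Orc2 was at 30.5 CPM (counts scaled to a common library total by TMM) in control F36, 31.8 in F37, 31.2 in M30 and 32.3 in M31, and at 35.7 in stress F34, 32.1 in F35, 35.4 in M28 and 35.5 in M29. Stress F34, M28 and M29 lay above all control brains, and F35 lay among them. Orc2 rose by 0.14 ± 0.04 on the log2 scale (SE, adjusted p = 0.0284). Another gene, Nif3l1, covers 29.8% of its exon bases, and reads of the pair cannot be told apart without strand. The call was lost with DESeq2 (adjusted p = 0.0871) and in 5 of the 8 fits that each left out 1 brain. The other 5 subunits had log2 fold changes between 0.03 (Orc4) and 0.11 (Orc6), none called.

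Of the genes of helicase loading, Cdc6 and Gmnn rose and Cdt1 was not called. Gmnn, the inhibitor of Cdt1, was at 7.43, 7.51, 8.24 and 6.26 CPM in control F36, F37, M30 and M31, and at 8.84, 9.40, 9.20 and 9.74 CPM in stress F34, F35, M28 and M29. The groups did not overlap, and control M31 was the lowest brain. The rise of Gmnn was 0.34 ± 0.08 on the log2 scale (SE, adjusted p = 0.00669), the second largest of the 49. Cdc6, the loading ATPase, rose by 0.29 ± 0.07 (SE, adjusted p = 0.00915), from between 7.66 and 8.32 CPM in the control brains to between 8.85 and 10.4 in the stressed ones. Cdt1, its partner and the target of geminin, was between 11.1 and 11.98 CPM in the control brains and between 11.3 and 11.8 in the stressed ones, with a log2 fold change of 0.01 ± 0.06 (SE).

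All 6 genes of the MCM ring, the helicase that opens the double strand, rose, with a median log2 fold change of 0.16. Mcm2 was at 47.7, 47.1, 49.6 and 45.5 CPM in control F36, F37, M30 and M31, and at 55.4, 51.0, 57.4 and 58.3 CPM in stress F34, F35, M28 and M29. Mcm3 was at 34.98, 36.5, 36.2 and 34.9 CPM in the same control brains and at 41.1, 39.9, 43.2 and 41.2 CPM in the stressed ones. Mcm7 was at 110.1, 105, 110.4 and 106 CPM in the control brains and at 119, 112, 125 and 123 CPM in the stressed ones. For these 3 genes every stressed brain lay above every control brain, and F35 was the lowest of the stressed brains each time. The log2 fold change was 0.23 ± 0.04 for Mcm2 (SE, adjusted p = 0.000355), 0.21 ± 0.04 for Mcm3 (SE, adjusted p = 0.00061) and 0.15 ± 0.03 for Mcm7 (SE, adjusted p = 0.00194). Mcm7 shares 12.6% of its exon bases with Ap4m1, Cops6 and the microRNA genes Mir25 and Mir93.

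Mcm6 rose by 0.13 ± 0.03 (SE, adjusted p = 0.00644) without overlap of the groups, while Mcm4 (0.15 ± 0.04, SE, adjusted p = 0.00987) and Mcm5 (0.16 ± 0.04, SE, adjusted p = 0.0142) rose with an overlap. Mcm5 was at 44.2, 44.1, 44.7 and 43.2 CPM in control F36, F37, M30 and M31, and at 52.8, 44.0, 50.2 and 50.1 CPM in stress F34, F35, M28 and M29. So 3 stressed brains were above all control brains, and F35 was level with the controls. Without stress F34 the adjusted p of Mcm5 was 0.0978.

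Of the 8 genes of helicase activation, 2 rose, Mcm10 and Dbf4. Mcm10, a factor that helps the helicase start, was at 9.68, 9.17, 10.05 and 10.4 CPM in control F36, F37, M30 and M31, and at 11.2, 11.7, 11.4 and 12.3 CPM in stress F34, F35, M28 and M29. The groups were apart, and the 4 stressed brains were close to one another. Mcm10 rose by 0.24 ± 0.07 on the log2 scale (SE, adjusted p = 0.0129), and Dbf4, the regulatory subunit of the Cdc7 kinase, by 0.16 ± 0.04 (SE, adjusted p = 0.0202). With DESeq2 the adjusted p-values were 0.0577 and 0.0672. Leaving out 1 brain ended the call of Mcm10 in 2 of 8 fits and that of Dbf4 in 4 of 8.

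Cdc7, the kinase itself, was at 63.2, 63.9, 65.4 and 62.1 CPM in control F36, F37, M30 and M31, and at 63.5, 65.9, 63.7 and 59.6 CPM in stress F34, F35, M28 and M29. Both the highest and the lowest brain were stressed brains, and the log2 fold change was -0.01 ± 0.04 (SE). Cdc45 and the 4 genes of the GINS complex, which join the ring to form the running helicase, had log2 fold changes between 0.03 (Cdc45) and 0.14 (Gins1), none called. Gins2 shares 67.3% of its exon bases with Gse1.

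Primase and the polymerases had 1 call among 9 genes. Pole, which copies the leading strand, was at 25.9, 27.0, 27.1 and 26.2 CPM in control F36, F37, M30 and M31, and at 33.7, 31.6, 33.0 and 33.6 CPM in stress F34, F35, M28 and M29. The groups were well apart, with the highest control brain at 27.1 and the lowest stressed brain at 31.6 CPM. The rise was 0.31 ± 0.04 on the log2 scale (SE, adjusted p = 2.45e-05), and the call held in all 8 fits that left out 1 brain. Pole2, its second subunit, was low (4.11 to 4.72 CPM in the control brains, 4.11 to 5.49 in the stressed ones) and had a log2 fold change of 0.12 ± 0.10 (SE).

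The other polymerases and primase were not called, and 2 of them were among the 3 members with the lowest fold changes. Pold2, a subunit of polymerase delta, was at 31.8, 29.1, 28.3 and 29.7 CPM in control F36, F37, M30 and M31, and at 28.9, 27.9, 28.2 and 30.9 CPM in stress F34, F35, M28 and M29. Pola1, the catalytic subunit of polymerase alpha, was at 20.4, 21.4, 21.8 and 22.6 CPM in the control brains and at 21.9, 21.2, 20.1 and 22.4 CPM in the stressed ones. The groups overlapped for both, with log2 fold changes of -0.04 ± 0.05 for Pold2 and -0.01 ± 0.05 for Pola1 (SE). The remaining 5 genes, Pola2, Prim1, Prim2, Pold1 and Pold3, lay between 0.02 (Pold3) and 0.09 (Prim2).

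The sliding clamp rose and none of its 5 loader subunits was called. Pcna, the ring that tethers the polymerases to DNA, was at 109, 109, 113 and 109 CPM in control F36, F37, M30 and M31, and at 115, 117, 122 and 129 CPM in stress F34, F35, M28 and M29. The groups did not overlap, and the males M28 and M29 were the highest brains. Pcna rose by 0.14 ± 0.03 on the log2 scale (SE, adjusted p = 0.0028). Its listed pseudogene copies Pcna-ps1 and Pcna-ps2 had at most 2 and 19 counts in any brain. Of the loader, Rfc1, Rfc3, Rfc4 and Rfc5 had log2 fold changes between 0.11 and 0.15, each with an unadjusted p under 0.05 and none called, and Rfc2 was at -0.01 ± 0.03 (SE).

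Replication protein A covers single-stranded DNA, and 1 of its 3 subunits was called. Rpa2 was at 23.9, 22.0, 20.9 and 20.5 CPM in control F36, F37, M30 and M31, and at 24.3, 24.0, 26.2 and 23.1 CPM in stress F34, F35, M28 and M29. Stress M29 lay below control F36, so the groups overlapped, and the log2 fold change was 0.16 ± 0.05 (SE, adjusted p = 0.0408). The call was lost with DESeq2 (adjusted p = 0.115) and held in only 3 of the 8 fits that left out 1 brain. Rpa1 (0.09 ± 0.03, SE) and Rpa3 (0.11 ± 0.05, SE) were not called.

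Lig1, the ligase that seals Okazaki fragments, was at 56.8, 54.1, 57.1 and 59.7 CPM in control F36, F37, M30 and M31, and at 67.6, 61.2, 64.4 and 66.1 CPM in stress F34, F35, M28 and M29. All stressed brains lay above all control brains, and the rise was 0.19 ± 0.04 on the log2 scale (SE, adjusted p = 0.00109). Fen1, the flap nuclease that acts before the ligase, had only 35 to 55 counts per brain. Genes that overlap it, Tmem258 among them, cover 84.2% of its exon bases, and its log2 fold change of 0.27 ± 0.16 (SE) was not called, so a change of that size was not detectable here.

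Of the 4 genes of nucleotide supply 3 rose, with Rrm2 first of the 49 by its p and Tk1 first by the size of its rise. Rrm2, the regulated subunit of ribonucleotide reductase, which makes deoxyribonucleotides, was at 65.8, 66.1, 64.3 and 62.6 CPM in control F36, F37, M30 and M31, and at 78.0, 75.5, 81.3 and 81.7 CPM in stress F34, F35, M28 and M29. Rrm1, the large subunit, was at 94.3, 91.0, 96.2 and 95.1 CPM in the control brains and at 106, 109, 109 and 112 CPM in the stressed ones. Tk1, the thymidine kinase of S phase, was at 13.8, 12.5, 12.2 and 12.8 CPM in the control brains and at 18.3, 15.6, 15.6 and 17.8 CPM in the stressed ones. None of these 3 genes had overlapping groups. The log2 fold change was 0.29 ± 0.03 for Rrm2 (SE, adjusted p = 4.71e-06), 0.21 ± 0.03 for Rrm1 (SE, adjusted p = 3.27e-05) and 0.39 ± 0.07 for Tk1 (SE, adjusted p = 0.000214). Tyms, the thymidylate synthase, had a log2 fold change of 0.12 ± 0.05 (SE) with overlapping groups and was not called.

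Uhrf1, which guides the copying of DNA methylation onto the new strand, was at 48.9, 44.8, 48.9 and 46.4 CPM in control F36, F37, M30 and M31, and at 56.5, 50.6, 56.9 and 59.0 CPM in stress F34, F35, M28 and M29. The groups did not overlap, with F35 nearest to the controls. The rise was 0.24 ± 0.04 on the log2 scale (SE, adjusted p = 0.000315). Ung, which removes uracil from DNA, was between 8.11 and 8.92 CPM in the control brains and between 8.02 and 9.88 in the stressed ones, and its log2 fold change was 0.03 ± 0.07 (SE).

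**Figure D2:**
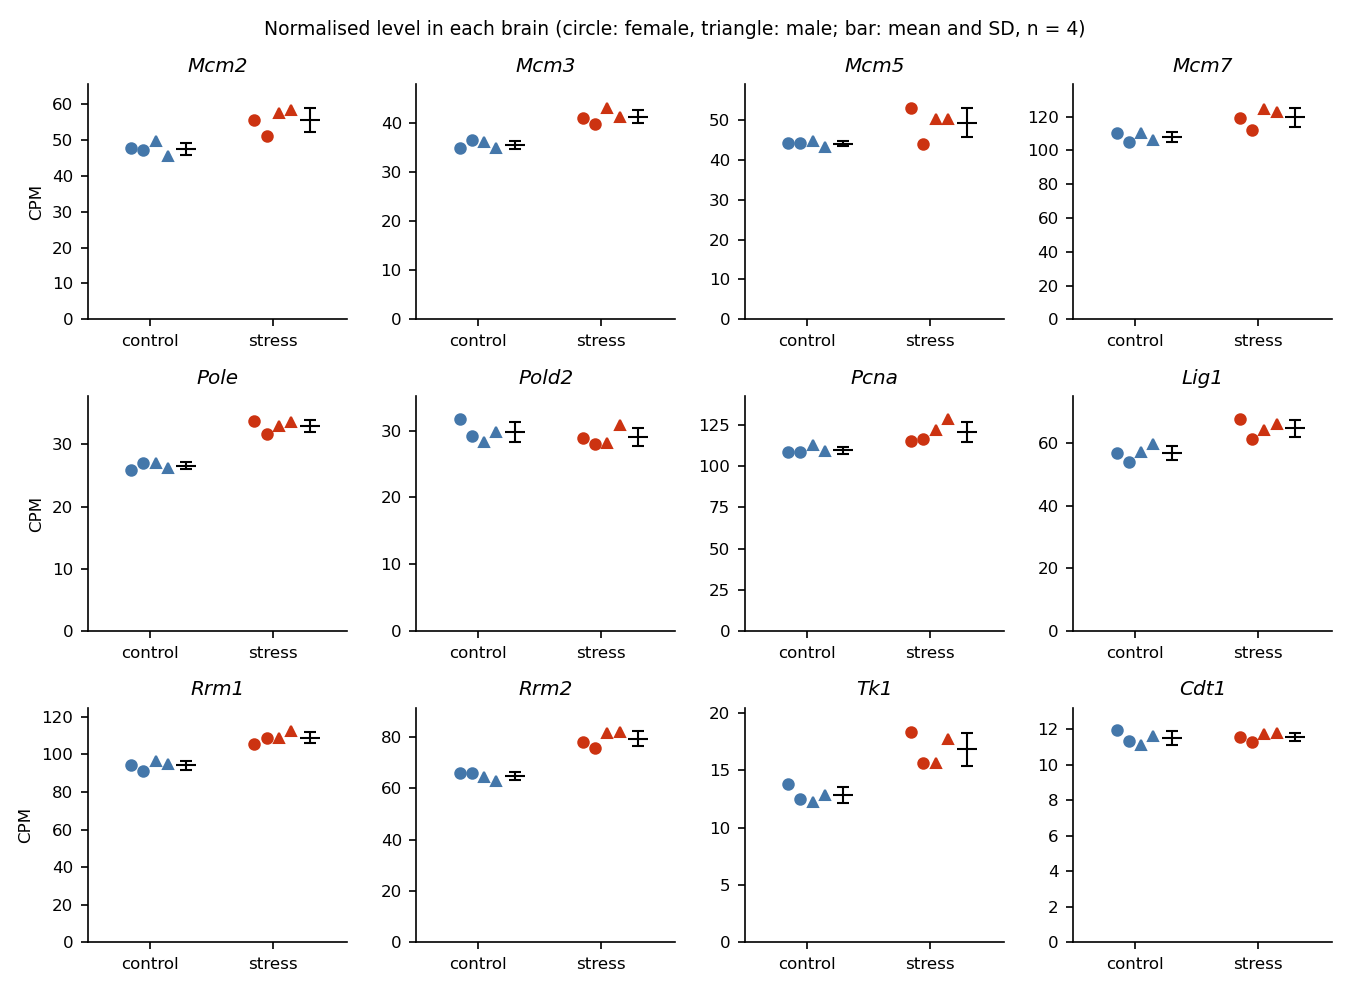
Normalised level (CPM, axes from 0) of 12 replication genes in each of the 8 brains, circles for females and triangles for males, with the mean and SD of each group beside the points (n = 4). The groups are apart for Mcm2, Mcm3, Mcm7, Pole, Pcna, Lig1, Rrm1, Rrm2 and Tk1, and overlap for Mcm5, where stress F35 sits with the controls, and for Pold2 and Cdt1.

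The 4 stressed brains did not stand equally high. The median log2 ratio of the 49 genes to their control means was 0.09 in stress F34, 0.07 in F35, 0.15 in M28 and 0.18 in M29, and between -0.02 and 0.03 in the control brains. M29 was the highest of all 8 brains for 19 members and M28 for 12. F35 was the lowest of the stressed brains for 27 members and the lowest of all 8 for 5. Summed over the 49 genes, the level was between 1726 and 1773 CPM in the control brains and between 1848 and 1960 CPM in the stressed ones, a ratio of the means of 1.09. The sum of each of the 10 roles lay higher in every stressed brain than in any control brain, with ratios of the means from 1.048 for helicase activation to 1.18 for nucleotide supply. A sum can be carried by 1 gene, so it does not show that the genes of a role rose together. The mean sum of primase and the polymerases went from 249.9 to 262.6 CPM, and Pole alone from 26.6 to 33.0 CPM. Of the control mean sums, Lig1 made up 56.9 of 58.4 CPM in Okazaki fragment joining. Uhrf1 made up 47.2 of 55.9 CPM in its pair with Ung. The library of F35 was the smallest, with 25320109 counts, and the others held up to 29105710.

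Which brains were used moved the number of calls little, but the genes called were not always the same. Leaving out 1 brain at a time gave between 16 and 19 members higher and 0 lower, and 14 of the 19 were called in all 8 of these fits. The other 5 were Orc2, Mcm5, Mcm10, Dbf4 and Rpa2. Without stress F34, 19 members were called, but only 16 of them were among the 19 of the fit of all 8 brains. Without stress M29, the brain highest for the most members, 16 were called, and without M28, 17. Among the 41 members of which other genes cover 10% or less of the exon bases, 17 were called.

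Per length, the members differed widely in level. The order below is of the control means in CPM per kb of exon, a scale on which genes can be set side by side, although it counts every annotated exon. Pcna was highest at 45.7 ± 0.857 CPM per kb (SD, n = 4), followed by Mcm7 at 24.4 ± 0.626 and Rrm2 at 23.3 ± 0.578, whose ranges over the control brains overlapped. The median member was at 8.13 CPM per kb. The lowest were Mcm10 at 1.28 ± 0.0671, Orc1 at 0.711 ± 0.0691 and Fen1 at 0.606 ± 0.0726, the last 2 overlapping. For Fen1, with 84.2% of its exon bases covered by other genes, the value counts reads over all exon bases and may be too low.

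On this scale of RNA per exon length, subunits of one complex were not at equal levels. Within the MCM ring, whose protein subunits stand in the ring once each, the order was Mcm7, Mcm6 (15.6 CPM per kb), Mcm4 (12.3), Mcm5 (11.0), Mcm3 (9.50) and Mcm2 (6.82). The control brains did not overlap between neighbours, and the ratio from top to bottom was 3.57. This order depends on the annotated exon length, which was longest for Mcm2 (6956 bases). By control mean CPM alone, Mcm2 (47.5) stood above Mcm4 (44.3), Mcm5 (44.0) and Mcm3 (35.7). In the origin recognition complex the order was Orc6 (17.4 CPM per kb), Orc3 (12.5), Orc4 (8.70), Orc2 (8.16), Orc5 (4.20) and Orc1 (0.711), again without overlap between neighbours and with a ratio of 24.4. This order too depends on exon length, and by control mean CPM alone Orc3 (76.2) and Orc4 (64.9) stood above Orc6 (42.9). Of polymerase epsilon, Pole stood at 2.38 and Pole2 at 1.5 CPM per kb, while Pole3 and Pole4, not among the 49, stood at 23.6 and 19.8. The annotated exons of Pole are long (11160 bases, against 2040 for Pole3). By control mean CPM, Pole was at 26.6, Pole2 at 4.32, Pole3 at 48.1 and Pole4 at 49.8.

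**Figure D3:**
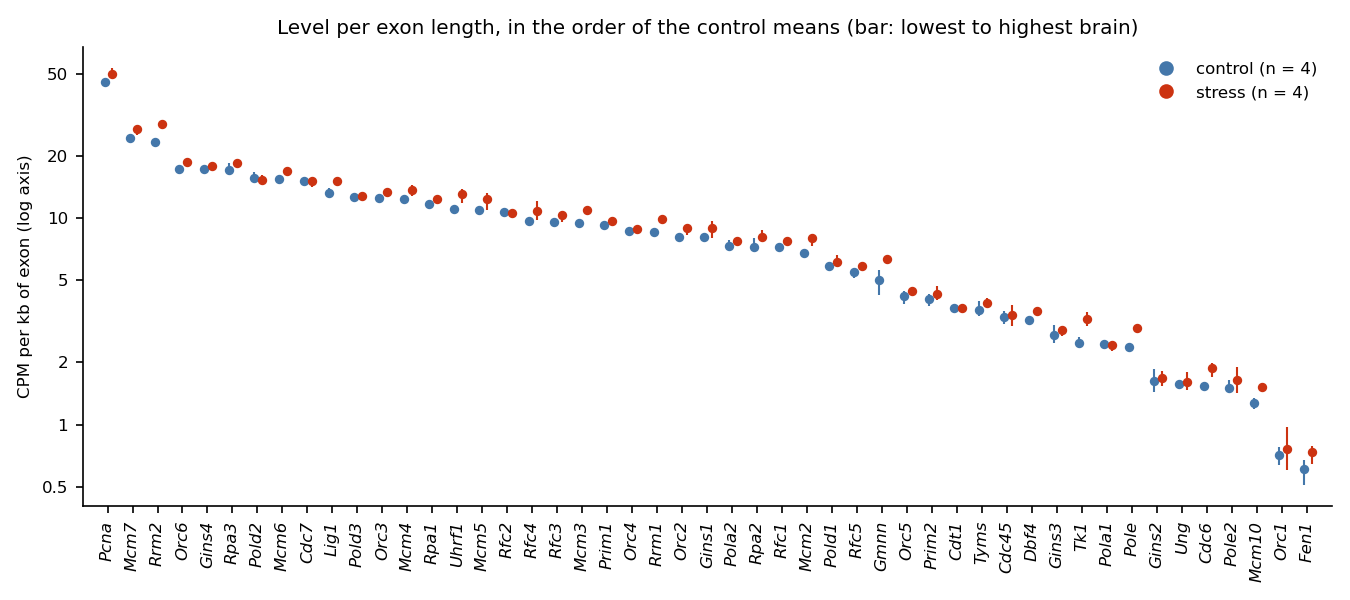
Level of the 49 replication genes per kb of exon (CPM per kb, log axis), in the order of the control means, with bars from the lowest to the highest of 4 brains. The members span from 45.7 (Pcna) to 0.606 (Fen1, which shares most of its exon bases with other genes) CPM per kb in the control group, and the gap between the groups is small beside the differences between genes.

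Fitted alone, with 2 brains against 2, the females had 5 members called higher (Pole, Lig1, Rrm1, Rrm2 and Tk1) and the males 18, with 0 lower in either sex. These counts moved with the processing, to 0 in females and 6 in males with DESeq2, to between 1 and 10 in females and between 8 and 17 in males with 1 brain left out, and to 0 in males without the filter on low counts. Over all genes the females had 1.64% called higher and 2.27% lower, and the males 3.68% higher and 4.81% lower. All 5 genes called in females were also called in males. At an unadjusted p under 0.05, 16 members were higher in females and 25 in males, and 0 were lower in both. The share of all genes at this threshold was not counted within each sex. The median log2 fold change of the members was 0.09 in females and 0.14 in males, against 0.00 over all genes in each sex. The fold change was above 0 in both sexes for 40 members and of opposite sign for 9, and was larger in males for 37. The calls in males included all of the MCM ring except Mcm6, together with Cdc6, Gmnn, Pcna, Rpa2 and Uhrf1. They also included Orc6, Rfc3 and Rfc4, which were not called over all 8 brains.

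The difference between the sexes was itself tested by a sex by stress interaction over all 8 brains, and no member was called (edgeR, lowest adjusted p = 0.738, for Rrm2), nor with DESeq2. Over all genes 0.0056% were called. Of all 17865 genes, 1128 had an unadjusted interaction p under 0.05, and among the members only Rrm2 did, at 0.0309. Its log2 fold change was 0.36 ± 0.04 in males and 0.22 ± 0.05 in females (SE).

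**Figure D4:**
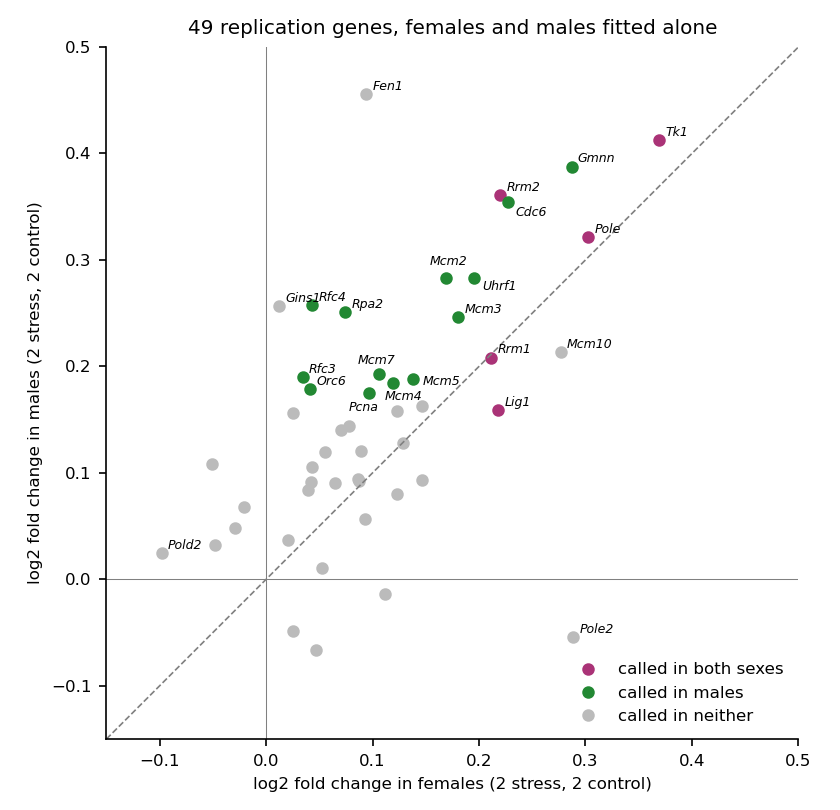
Log2 fold change (stress over control) of the 49 replication genes in females on the horizontal and in males on the vertical axis, each from 2 brains against 2, with the dashed line where both are equal. Colours show edgeR's calls, 5 in females (Pole, Lig1, Rrm1, Rrm2 and Tk1, all also called in males) and 18 in males, which fell to 0 and 6 with DESeq2. More points (37) lie above the line than below it, but the interaction test called none of the 49.

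Of 61 other genes of replication that are not among the 49, 21 rose and none fell, and the median log2 fold change was 0.10. At an unadjusted p under 0.05, 29 of the 61 were higher and 1 lower, against 2361 and 2439 of all 17865 genes. Among regulators of origin firing 3 of 12 rose, with the smallest p for Topbp1, the activator of origins, at 0.18 ± 0.03 (SE), then Dtl and Ticrr. Among other fork genes 10 of 22 rose, led by Top2a, the topoisomerase that untangles copied DNA, at 0.24 ± 0.03 (SE), Tipin, a fork protection factor, at 0.29 ± 0.04, and Pole3, a small subunit of polymerase epsilon, at 0.18 ± 0.04. Of the genes that rebuild chromatin behind the fork 6 of 13 rose, with Hells, a chromatin remodeller, at 0.25 ± 0.04 (SE), Cdca7 at 0.16 ± 0.04 and Supt16 at 0.13 ± 0.03. Of 14 other enzymes of nucleotide metabolism 2 rose, among them Shmt1, an enzyme of folate metabolism, at 0.28 ± 0.07 (SE). Mitosis genes moved too, with 30 of 32 higher and 0 lower and a median of 0.23. Their smallest p-values were those of Kif23, at 0.38 ± 0.05 (SE), Mki67, at 0.21 ± 0.03, and Cenpa, at 0.30 ± 0.04.

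Among markers of the neural lineage, only those of intermediate progenitors had summed levels that were apart between the groups. Of intermediate progenitor markers 7 of 10 rose, with Eomes at 0.25 ± 0.03, Neurog2 at 0.24 ± 0.04 and Btg2 at 0.18 ± 0.04 (log2, SE), and their summed level ran from 748 to 776 CPM in the control and from 799.6 to 863 CPM in the stressed brains. Of radial glia markers 5 of 15 rose and 0 fell, with Pax6 at 0.14 ± 0.03, Vim at 0.12 ± 0.03 and Sox2 at 0.12 ± 0.03 (log2, SE), but the median of the 15 was -0.02 and their sums overlapped, at 2446 to 2565 CPM against 2449 to 2610.0 CPM. Of neuron markers 0 rose and 7 of 16 fell, with Gap43 at -0.12 ± 0.03, Mapt at -0.10 ± 0.03 and Rbfox3 at -0.13 ± 0.03 (log2, SE), and the sums overlapped, at 10593 to 10893 CPM against 10291 to 10748 CPM. The part of these shifts in the rise of the replication genes was not tested.

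Markers of cells outside the neural lineage were read as well. Endothelial and pericyte markers had 4 of 10 lower and 0 higher, among them Flt1 at -0.41 ± 0.06, Kdr at -0.29 ± 0.04 and Cldn5 at -0.13 ± 0.04 (log2, SE), with sums of 269.7 to 299 CPM in the control and 259.8 to 274 CPM in the stressed brains. Microglia markers had 0 of 8 called, with sums of 36.6 to 40.2 CPM against 34.4 to 39.5 CPM. Of 7 markers of meninges and mesenchyme tested, Col3a1, Col1a1 and Col1a2 rose with overlapping groups and Pdgfra fell, and their sum was 87.2 CPM in stress M28 and between 45.5 and 57.3 CPM in the other 7 brains. Without M28, 17 replication genes were still called.

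Of 9 red blood cell genes tested, 2 rose and 1 fell. The embryonic globin Hba-x rose by 1.09 ± 0.15 and Hbb-y, also embryonic, by 0.84 ± 0.13, both without overlap of the groups, while the adult Hbb-bs fell by 0.14 ± 0.04 (log2, SE). The sums of these 9 genes were 366 to 415 CPM in the control and 373 to 388 CPM in the stressed brains. The remaining listed gene, Ahsp, was not among the genes counted. The part of these genes, which change with embryonic age, in the rise of the replication genes was not tested. No marker list had a counted gene at 0 in all 8 brains.

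**Figure D5:**
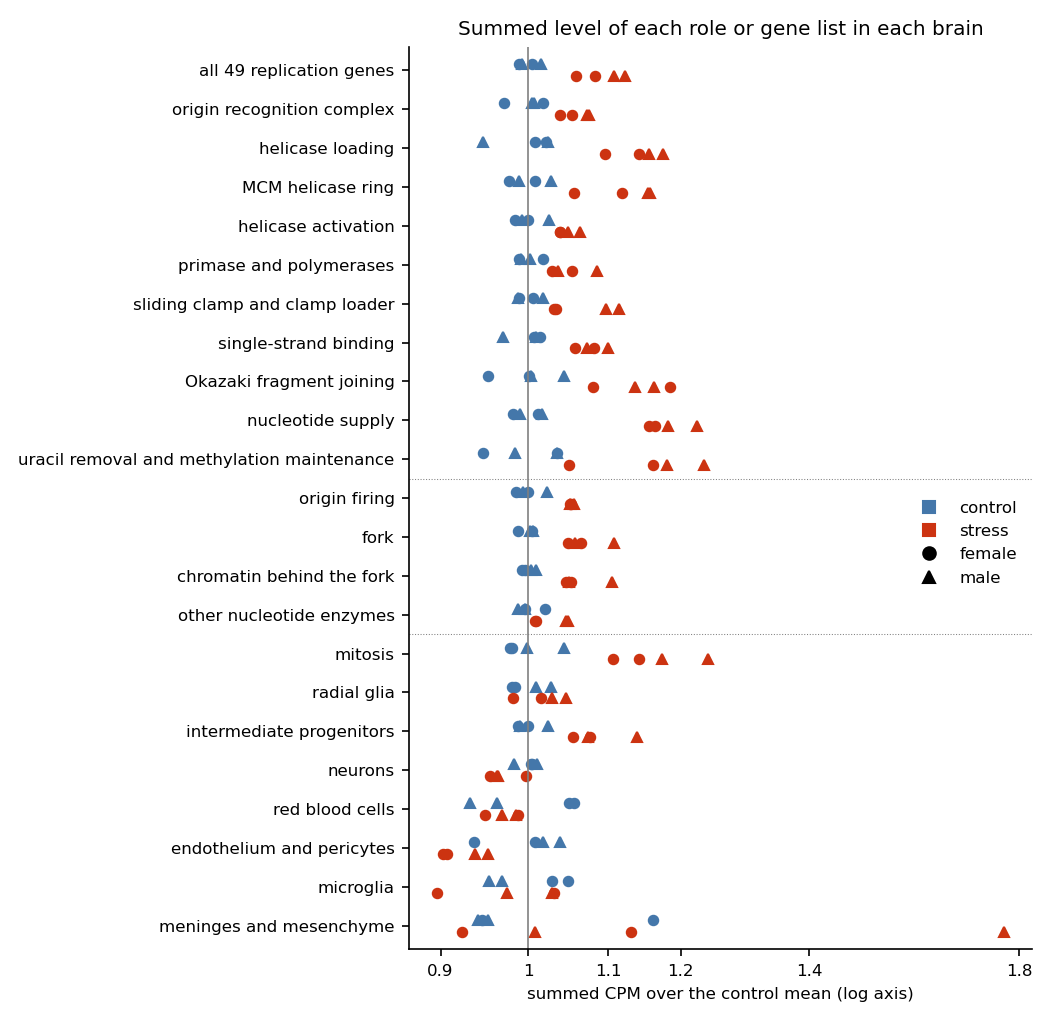
Summed CPM of each role of the replication genes (top), of the lists of other replication genes (middle) and of mitosis genes and cell type markers (bottom) in each brain, divided by the control mean (log axis). In all 10 roles every stressed brain lies above every control brain. The mitosis and intermediate progenitor sums are also apart, the sums of radial glia and neuron markers overlap, and stress M28 stands alone for meninges and mesenchyme.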

How the data were processed

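Per the labels and the study's methods, RNA was captured with oligo(dT) beads, sequenced as paired reads of 100 bases, trimmed with Trim Galore, aligned to mm10 with TopHat2 2.1.1 and counted per gene with featureCounts 1.6.3 (GENCODE vM20). The deposited values are these raw counts, with no normalization. The alignment kept up to 20 places per read, while no option of the counting step was given for strand, multiply mapped reads or gene overlaps. The study analysed more animals, with batch in its model, and only these 8 brains were analysed here, for which no batch is named. The labels name the tissue as brain, and the study's sample sheet, from which the litters were taken, as half_whole_brain.

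Genes passing edgeR's filterByExpr (minimum count 10, by group) were normalised by TMM and tested with the quasi-likelihood test of edgeR 4.0.16 (limma 3.58.1, R 4.3.3). Sex was a covariate, and Benjamini-Hochberg adjustment ran over all 17865 genes. The SE is the size of the log2 fold change divided by the square root of F. Of the 54752 identifiers, 54723 were matched to a symbol. Alternatives were DESeq2 1.42.0, RLE and upper-quartile normalization, no filter, no sex covariate and each brain left out. The fits were tested on simulated data. The members, roles and other lists were chosen with earlier results of these data known. Values in every brain are given for the 10 members with the smallest p, the 3 with the largest rise and fall, and the smallest p of each role, and also for Mcm5, chosen after its values were seen. Of other lists the 3 called genes with the smallest p in each direction are named, except 1 gene that is not reported here.

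Library totals were between 25320109 and 29105710 counts, and errors from counting alone are smallest for the highest genes. Sex-linked genes matched the labelled sex in 8 of 8 brains. Littermates of the same sex differed by more than sampling noise, with a chi-square per gene of 1.988 to 3.025. For littermates of different sex it was 4.09 to 6.28, with the sex-linked genes included. The common biological coefficient of variation was 3.14%, and mitochondrial genes took 2.10% to 2.31% of the counts.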

Additional observations from a re-analysis of the deposited data

Results flagged for a closer look

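In each group of 4 brains, the gap between the highest or the lowest brain and its nearest neighbour was compared with the range of the group (Dixon's test). Of the 98 pairs of a member and a group, 3 stood out, and chance alone gives about 1 in 20. Orc2 was at 32.1 CPM in stress F35, the lowest of the stressed brains, while the others were between 35.4 and 35.7. Cdc6 was at 8.85 CPM in stress F35, also the lowest of its group, with the next at 10.1 CPM. Pcna was at 113 CPM in control M30, the highest control brain, with the others at 109.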

How the results depend on the processing

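The count of members higher after stress stayed between 15 and 19 under all alternatives run, and the count lower at 0. Without the sex covariate 19 members were called, of which 17 were among the 19 called with it. All genes called higher numbered 1160, 748 with DESeq2 and 736 to 1057 with 1 brain left out, and those called lower 1298 and 854 to 1308 with 1 brain left out, in both cases lowest without stress M29. Other replication genes ranged from 15 to 22 and mitosis genes from 27 to 30 with 1 brain left out. Counts within 1 sex were the least stable. In females 5 members were called, 0 with DESeq2, and 1 to 10 with 1 brain left out (1 without F36 or F37, 3 without F34, 10 without F35). In males 18 were called, 6 with DESeq2, 8 to 17 with 1 brain left out (8 without M31 or M29, 9 without M28), and 0 without the filter on low counts, where edgeR's prior degrees of freedom fell from 30.9 to 3.86 and no gene of the whole table was called. A fit with 1 brain in a group assumes that this brain varies like the others. With 1 brain left out, the log2 fold change of 9 members, none of them called, took both signs (Orc1, Cdt1, Cdc45, Gins2, Cdc7, Pola1, Pold2, Rfc2 and Ung). Of the 3 with the lowest fold changes, Pold2 turned without F36, Cdc7 without M30 (0.0094) or M29, and Pola1 without M31 (0.012) or M28, and the value ran from -0.0752 to 0.00059 for Pold2, from -0.0308 to 0.015 for Cdc7 and from -0.0358 to 0.031 for Pola1. No paired analysis was possible because the groups came from different dams, 1 litter each, and nothing pairs a control brain with a stressed one. With 2 brains against 2, and for low genes such as Fen1 and Orc1, precision limits what can be called.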
